A study of Oryza sativa with 6 samples.

Results

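The auxin indole-3-acetic acid (IAA) was compared with its solvent in whole seedlings of the indica rice variety IR64, using 4 of the 6 arrays of a hormone study. The seedlings were 7 days old and grown in light. One group received 50 µM IAA and the control group 0.1% dimethyl sulfoxide (DMSO). Tissue harvested at 1 h and at 3 h was pooled in equal amounts before RNA was taken, so the values are an average over both times. Each group held 2 replicates, which the series design calls biological, and each was hybridised to an Affymetrix rice array of its own. The other 2 arrays came from seedlings given 50 µM benzyl aminopurine (BAP), a synthetic cytokinin. They entered the fit only to estimate the spread between replicates and are set beside IAA near the end. Arrays were assigned to groups by their titles, and every target probe set bright enough to be tested was compared, 34316 of 57194.

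Auxin acts through receptors that mark Aux/IAA proteins for destruction. Aux/IAA proteins restrain auxin response factors (ARFs), so their loss frees ARFs to switch genes on, and many Aux/IAA genes are themselves among the genes switched on. GH3 enzymes join amino acids to auxin and related acids, which lowers the level of the free hormone. In grass seedlings auxin is known for the growth of coleoptiles and leaves and for the formation of crown and lateral roots, where it works with and against cytokinin.

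The control replicates resembled each other more closely than the groups did, and the IAA replicates did so only by a small margin. The median absolute log2 difference between arrays over the tested probe sets was 0.140 for the control pair and 0.194 for the IAA pair. It lay between 0.199 and 0.202 for the 4 pairs of a control with an IAA array. At least 2-fold differences were seen for 344 probe sets between the controls, 614 between the IAA arrays, and 749 to 934 between a control and an IAA array. With 2 arrays a group, precision is limited throughout. All 4 arrays shared a run day, but the controls passed through fluidics modules 1 and 2 and the IAA arrays through modules 3 and 4, so module and IAA cannot be told apart. The leaf genes used to check the labelled tissue were bright on every array, and 0 of 5 measured photosystem and Rubisco genes changed. Their summed normalized intensity was 23194 and 23205 in the controls and 23478 and 24332 with IAA. Of 5 measured genes known for their expression in roots, 1 fell, the aluminium transporter gene Nrat1. Their summed intensity was 8489 and 8083 in the controls against 6857 and 6836 with IAA, and none of the shoot or root genes was at 0 on any array. In whole seedlings a smaller share of root tissue and less RNA per cell cannot be told apart, and whether root tissue had a part in other results was not tested.

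Increases outnumbered decreases. In limma, with a threshold of 0.05 on the Benjamini-Hochberg adjusted p, 217 probe sets were higher with IAA (0.632% of those tested) and 75 were lower (0.219%), 292 together (0.851%). Taking the brightest probe set of each of 16464 genes, 142 genes rose (0.862%) and 43 fell (0.261%), together 185 (1.12%). The increases were also the larger changes. Among the higher probe sets 154 changed at least 2-fold, 41 at least 4-fold and 11 at least 8-fold, against 41, 2 and 0 of the lower ones. The median called increase was 1.31 on the log2 scale, from a median intensity of 172 to 504, and the median called decrease was 1.03, from 277 to 133. In all 4 pairs of a control with an IAA array, 123 of the 217 increases and 20 of the 75 decreases were at least 2-fold. None of the 292 had overlapping groups, but with 2 arrays a group passing the threshold makes that nearly certain, so it is no further support. Over all tested probe sets, 21.1% had both IAA arrays above both controls and 22.9% had both below (21.4% and 25.2% of genes).

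The direction of the balance depended on the scaling of the arrays. Increases made up 74.3% of the calls with quantile-normalized arrays, 77.4% with arrays centred on their medians (171 higher, 50 lower) and 48.6% without rescaling (244 higher, 258 lower). Leaving out control array 1 left 78 higher and 7 lower probe sets, control array 2 left 122 and 27, IAA array 1 left 82 and 21, and IAA array 2 left 118 and 60. With each control or IAA array left out in turn, 63 of the 217 increases and 3 of the 75 decreases passed every time. Another increase, without a gene name, passed in 3 of these fits and fell under the intensity limit in the other one.

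**Figure D1:**
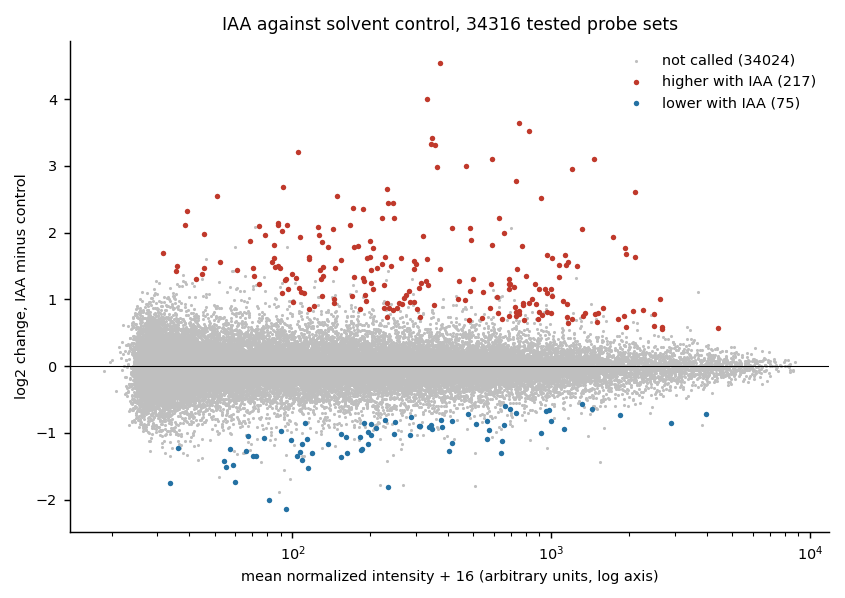
Log2 change with IAA (vertical axis) against the mean normalized intensity plus 16 (horizontal, log axis) of 34316 probe sets, with the 217 called higher in red, the 75 called lower in blue and the others in grey. The increases reach 4.54 and the decreases stop at -2.15, and few calls lie among the dimmest probe sets.

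The plot of change against intensity shows that calls were rare where signal was low. Among the dimmest 8579 tested probe sets, with intensities from 9.94 to 26.9, 9 were higher and 2 lower, and the median standard error was 0.27. Among the brightest 8579, 88 were higher and 28 lower, with a median standard error of 0.12. Of the 217 increases, 13 had a mean control intensity under 20, among them IAA26 and ACS1. The calls could be traced to 194 genes through probe sets with 1 gene. Of these genes, 30 had several tested probe sets, which all had the same sign in 23 genes and were all called in 6.

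Aux/IAA genes, the repressors of auxin signalling, held the largest named increases. Of 25 measured members 10 rose and 0 fell, and the list's median log2 change was 0.46 against -0.01 over all genes. IAA20 (LOC4340245) read 203 and 189 on the control arrays and 2485 and 2763 on the IAA arrays, a log2 change of 3.64 (SE 0.14, limma adjusted p = 2.32e-05). IAA9 (LOC4331061) read 243 and 209.8 on the control arrays and 2739 and 2778 on the IAA arrays, a change of 3.52 (SE 0.16, limma adjusted p = 2.4e-05). Both genes were at a similar level on replicate arrays and more than 10-fold apart between the groups. IAA26 (LOC4347643) read 19.5 and 17.8 in the controls, close to the background, and 286 and 322 with IAA (log2 change 3.21, SE 0.24, limma adjusted p = 0.000529). IAA4 (LOC4327919) was also dim in the controls, at 20.4 and 38.5, and read 191 and 141 with IAA. Its 3 probe sets were all called, with changes of 2.02, 1.87 and 1.55 (adjusted p = 0.00902, 0.0227 and 0.00982).

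The other Aux/IAA genes that rose were already well expressed without added auxin. IAA1 read 608 and 709 on the control arrays and 1940.2 and 2005 on the IAA arrays, a change of 1.56 (SE 0.11, limma adjusted p = 0.000529), while a second and dimmer probe set of it had a log2 value of 0.13. IAA12 read 589.8 and 653 on the control arrays and 1866 and 1728 on the IAA arrays, a change of 1.51 (SE 0.11, limma adjusted p = 0.000529). IAA24 read 639 and 664 on the control arrays and 2329.7 and 1523 on the IAA arrays, and its change was 1.51 (SE 0.18, limma adjusted p = 0.00655). In these 3 genes both IAA arrays were more than 2-fold above both controls, and in IAA24 the IAA arrays differed from each other most. IAA10 (428 and 440.0 on the control arrays and 1047 and 1031 on the IAA arrays) changed by 1.23 (SE 0.11, limma adjusted p = 0.00146), IAA15 by 1.00 (SE 0.12, limma adjusted p = 0.0052) and IAA13, among the brightest members at 3483 and 3720.0 in the controls, by 0.57 (SE 0.08, limma adjusted p = 0.0142). IAA20, IAA9, IAA26, IAA1, IAA12 and IAA10 passed with each control or IAA array left out. IAA4 (first probe set) and IAA15 missed the threshold when control array 1 was left out (adjusted p = 0.0624 and 0.0624) or when IAA array 1 was (0.105 and 0.0612). IAA24 missed it without control array 1 (0.0502), and IAA13 whichever of the 4 arrays was left out (up to 0.205).

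The remaining 15 Aux/IAA genes did not pass the test. Among them IAA14 had the largest value, 1.13, but read 117 and 81.5 on the control arrays and 363 and 148 on the IAA arrays, and its adjusted p was 0.233. IAA31, IAA30, IAA21 and IAA23 had both IAA arrays above both controls, with values of 0.51, 0.36, 0.33 and 0.46 (adjusted p from 0.129 to 0.23). IAA7 lay the other way, at 213 and 199 on the control arrays and 130.2 and 111 on the IAA arrays (log2 change -0.70, SE 0.15, limma adjusted p = 0.0849). Small values were measured for the bright members IAA3 and IAA17, which read 4744 and 4794 on the control arrays and 4956 and 4889 on the IAA arrays, and 5527 and 4829 on the control arrays and 5316 and 5172 on the IAA arrays, in that order (log2 changes 0.05 and 0.02, SE 0.08 and 0.13). A much dimmer probe set of IAA3 had a log2 value of 0.88 that did not pass (adjusted p = 0.134). IAA5, IAA25 and IAA6 had log2 values of 0.24, 0.25 and 0.22, and IAA2, IAA18, IAA19 and IAA8 had log2 values of -0.24, -0.23, -0.11 and -0.04, with adjusted p of at least 0.426 for these 7. Over the 25 genes 19 had both IAA arrays above both controls and 3 below, beside 21.4% and 25.2% of all genes.

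**Figure D2:**
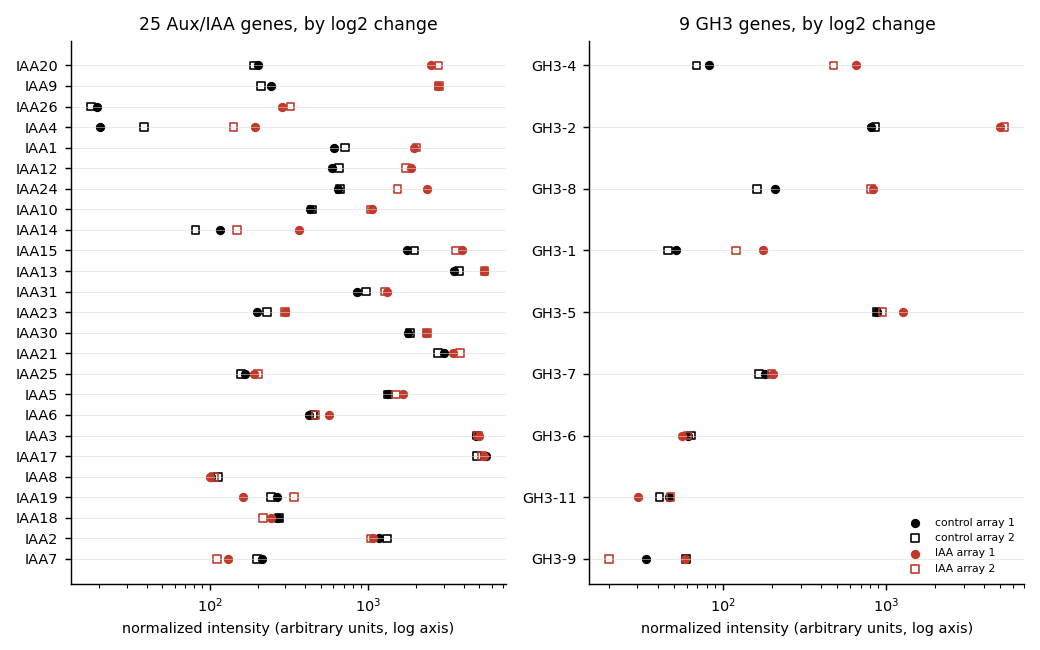
Normalized intensity (log axis) of 25 Aux/IAA genes (left) and 9 GH3 genes (right) on each control array (black) and IAA array (red), ordered by log2 change, with filled circles for array 1 and open squares for array 2. The top genes of each family are separated by group on every array, while most lower genes overlap or lie close together. IAA7, the lowest on the left, has both IAA arrays below both controls.

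The GH3 family divided in the same manner, as the plot of both families by array shows: 4 of 9 genes rose, 0 fell, and the median change was 0.32. GH3-2 (LOC4326893) was the brightest that rose, at 813 and 864 on the control arrays and 4988 and 5353 on the IAA arrays, a change of 2.60 (SE 0.19, limma adjusted p = 0.000529). GH3-4 (LOC4339234) went from 82.5 and 69.1 to 657 and 478 (log2 change 2.66, SE 0.19, limma adjusted p = 0.000529). GH3-8 (LOC4343785) read 210.4 and 163 on the control arrays and 838 and 809 on the IAA arrays (log2 change 2.06, SE 0.15, limma adjusted p = 0.000529). All 3 passed with each control or IAA array left out. GH3-1 read 51.6 and 46.4 on the control arrays and 177 and 121 on the IAA arrays, a change of 1.32 (SE 0.22, limma adjusted p = 0.0329), and missed the threshold whichever of the 4 arrays was left out (adjusted p up to 0.209). The values of the other 5 were 0.32 for GH3-5, which in rice makes the jasmonate-isoleucine conjugate, 0.19 for GH3-7, -0.08 for GH3-6, -0.13 for GH3-11 and -0.24 for GH3-9. For these 5 genes the limma adjusted p was at least 0.452, and in GH3-9, GH3-11 and GH3-5 the IAA arrays differed from each other more than the group means did.

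Oxidation is the other route by which plants remove auxin. DAO (LOC4336150), a dioxygenase gene for auxin oxidation in rice, read 1119 and 1239 on the control arrays and 4043 and 3366 on the IAA arrays, a change of 1.63 (SE 0.13, limma adjusted p = 0.00067), and passed with each of these arrays left out. The groups were far apart for DAO, and it was the only gene called among 10 measured genes of auxin synthesis and oxidation (median 0.07). FIB, which encodes a tryptophan aminotransferase of auxin synthesis, read 276 and 270.3 on the control arrays and 336 and 303 on the IAA arrays (log2 change 0.21, SE 0.13, limma adjusted p = 0.613). None of 4 measured auxin carrier genes passed, beside 1.12% of all genes. Of these the efflux carrier gene PIN3A had the largest value, with 208 and 202 on the control arrays and 294 and 278 on the IAA arrays (log2 change 0.45, SE 0.13, limma adjusted p = 0.231). PID, a protein kinase gene known to direct auxin efflux carriers, was singled out after its value was seen. It read 205 and 199 on the control arrays and 563 and 422 on the IAA arrays, a change of 1.21 (SE 0.16, limma adjusted p = 0.00982), and missed the threshold without control array 1, control array 2 or IAA array 1 (highest adjusted p 0.088).

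Among 16 measured auxin response factor genes, which encode the factors that Aux/IAA proteins restrain, 2 rose and 0 fell, with a median of 0.29. ARF10 read 126 and 139 on the control arrays and 340.4 and 315 on the IAA arrays (log2 change 1.21, SE 0.14, limma adjusted p = 0.00583). ARF23 read 1084 and 1131 on the control arrays and 2147 and 1714 on the IAA arrays (log2 change 0.78, SE 0.12, limma adjusted p = 0.0238), and its second probe set changed by 0.92 (adjusted p = 0.025). Neither gene's groups overlapped, but ARF10 missed the threshold in the absence of control array 1 or IAA array 1 (adjusted p = 0.0852 and 0.0636), and ARF23 without those or control array 2 (up to 0.213). ARF15 and ARF16 came next, with values of 0.57 and 0.58 (adjusted p = 0.1 and 0.141). SAUR39, the only measured gene of the small auxin-up RNA family that the names identified, read 321 and 394 on the control arrays and 234 and 449.8 on the IAA arrays, and its groups overlapped.

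Developmental regulators known from root and leaf growth were among the increases. WUSCHEL-related homeobox (WOX) genes control stem cells and organ initiation, and 2 of 5 measured members rose. WOX6 (LOC4332705) read 55.8 and 76.9 on the control arrays and 491 and 327 on the IAA arrays, a change of 2.35 (SE 0.22, limma adjusted p = 0.00171). WOX11, which promotes crown root growth in rice, read 506 and 618 on the control arrays and 1868 and 1634 on the IAA arrays, a change of 1.61 (SE 0.20, limma adjusted p = 0.00729). For both, the lower IAA array was over 2-fold above the higher control array. WOX10 was near background in the controls, at 3.46 and 18.7 against 59.4 and 66.1 with IAA, and did not pass (log2 change 1.60, SE 0.34, limma adjusted p = 0.0831). WOX9 and WOX13 had log2 values of 0.69 and 0.31. All 5 genes had both IAA arrays above both controls, as 21.4% of all genes did, and the list's median was 1.60.

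Of 25 homeodomain-leucine zipper genes HOX1 alone passed, beside 1.12% of all genes. HOX1 rose, reading 354 and 491 on the control arrays and 1144 and 968 on the IAA arrays (log2 change 1.30, SE 0.18, limma adjusted p = 0.012). It and WOX11 missed the threshold when control array 1 was left out (adjusted p = 0.0932 and 0.0624) or when IAA array 1 was (0.113 and 0.0842), whereas WOX6 passed each time. HOX2 had the next largest value of that list, 0.69 (adjusted p = 0.16). Of the 9 KNOX homeobox genes, which maintain shoot meristems, none passed, beside 1.12% of all genes. Values below 0, from -0.49 to -0.03, were seen for 8 of the 9.

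Atypical helix-loop-helix genes, which tune leaf angle and cell elongation in rice, moved in both directions. BU1 (LOC4340551), which promotes brassinosteroid responses, read 110.2 and 110.5 on the control arrays and 1298 and 750.4 on the IAA arrays, a change of 2.99 (SE 0.24, limma adjusted p = 0.00067). Its controls were nearly equal, and its IAA arrays were well apart from each other. IBH1, known as an inhibitor of cell elongation, read 151 and 167 on the control arrays and 299 and 309 on the IAA arrays on its brighter probe set (log2 change 0.87, SE 0.13, limma adjusted p = 0.0222), while the other probe set had a log2 value of -0.42 (adjusted p = 0.504). ILI6 (LOC4331776) fell, from 145 and 155 to 50.4 and 47.6 (log2 change -1.35, SE 0.16, limma adjusted p = 0.00555), with both IAA arrays at about the same level. ILI2, close to the background, read 11.5 and 13.8 on the control arrays and 11.8 and 15.9 on the IAA arrays. BU1 passed with each array left out. ILI6 missed the threshold without either control array (adjusted p = 0.0587 and 0.0586), and IBH1 whichever of the 4 arrays was left out (up to 0.253).

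**Figure D3:**
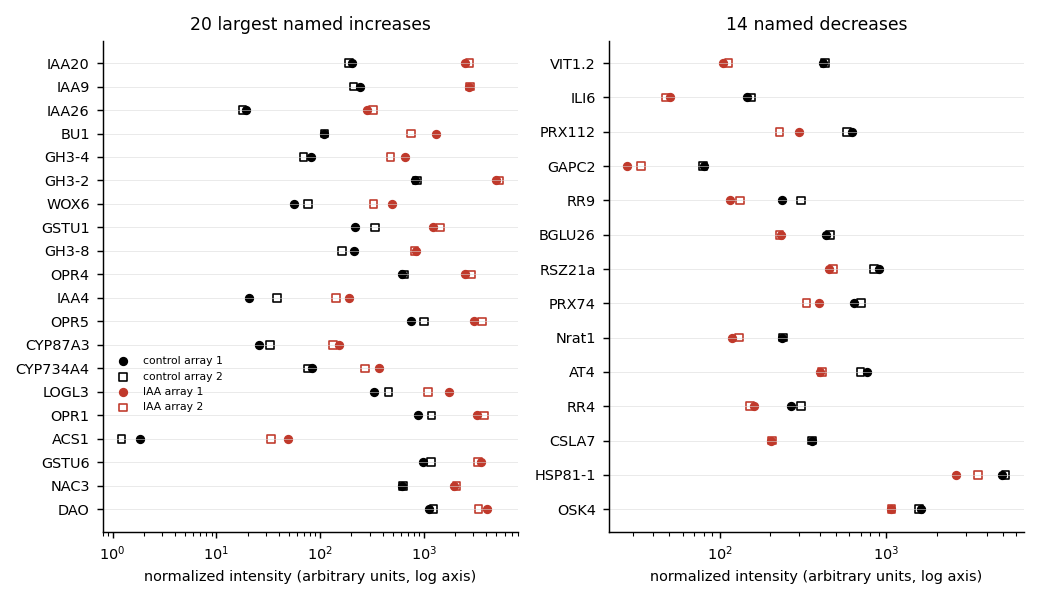
Normalized intensity (log axis) on each control array (black) and IAA array (red) for the 20 named genes with the largest called increases (left) and the 14 named genes with a called decrease (right), with filled circles for array 1 and open squares for array 2. In every gene both IAA arrays lie on one side of both control arrays, by rule, and the gaps are wider on the left.

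Genes of cytokinin response and turnover changed in opposite directions. Type-A response regulators are early targets of cytokinin and damp its signalling. Of 6 measured, 2 fell and 0 rose, where 1.12% of all genes passed. RR9 (LOC4349747), whose probes can share signal with a near-identical copy, read 237 and 306 on the control arrays and 116 and 132 on the IAA arrays, a change of -1.03 (SE 0.15, limma adjusted p = 0.0159). RR4 read 266 and 308 on the control arrays and 162 and 151 on the IAA arrays (log2 change -0.81, SE 0.13, limma adjusted p = 0.0294). RR6 and RR2 also had both IAA arrays below both controls, with values of -0.28 and -0.22 (adjusted p = 0.423 and 0.662), whereas RR5 and RR1 had log2 values of 0.33 and 0.20. RR9 passed without control array 1 but not without control array 2 (adjusted p = 0.134), IAA array 1 (0.113) or IAA array 2 (0.0547), and RR4 missed the threshold whichever of the 4 arrays was left out (adjusted p up to 0.254).

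LOG enzymes release active cytokinin from its nucleotide, and 1 of 8 LOG genes rose, where 1.12% of all genes passed. LOGL3 (LOC4331344) read 331 and 455 on the control arrays and 1755 and 1099.7 on the IAA arrays, a change of 1.80 (SE 0.22, limma adjusted p = 0.00655), and passed with each array left out. LOG itself read 326 and 318 on the control arrays and 729 and 507 on the IAA arrays and did not pass (log2 change 0.89, SE 0.17, limma adjusted p = 0.0547). LOGL6 lay the other way, from 28.6 and 22.1 to 3.11 and 2.71, near the background (log2 change -1.13, SE 0.25, limma adjusted p = 0.09). Cytokinin dehydrogenases break cytokinin down, and CKX4 rose among 4 measured genes. It read 156 and 193 on the control arrays and 426 and 370.1 on the IAA arrays (log2 change 1.12, SE 0.15, limma adjusted p = 0.00982) and missed the threshold in the absence of control array 1 or IAA array 1 (adjusted p = 0.116 and 0.0872). CKX3 read 37.9 and 49.9 on the control arrays and 29.3 and 18.7 on the IAA arrays, a value of -0.59 that did not pass (adjusted p = 0.311), and CKX11 and CKX5 had log2 values of -0.14 and -0.06.

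Among other hormones, 12-oxophytodienoate reductase (OPR) genes stood out. OPR enzymes reduce precursors of jasmonate or related compounds, and OPR1, OPR4 and OPR5 are close relatives whose probes may share signal. OPR4 (LOC4340486) read 612 and 649.8 on the control arrays and 2504 and 2835 on the IAA arrays (log2 change 2.05, SE 0.13, limma adjusted p = 0.000195). OPR5 (LOC4340485) read 748 and 1005 on the control arrays and 3070.3 and 3659 on the IAA arrays (log2 change 1.93, SE 0.15, limma adjusted p = 0.000551), and its second probe set had a log2 value of 1.13 (adjusted p = 0.0581). OPR1 (LOC4340490) read 873 and 1189 on the control arrays and 3257 and 3817 on the IAA arrays (log2 change 1.78, SE 0.15, limma adjusted p = 0.00108). All 3 were bright and passed with each array left out. The other 15 measured genes of the jasmonate list did not pass and ranged from -0.65 for the lipoxygenase gene LOX9 to 0.52 for OPR6. OPR7, the rice reductase known for jasmonate synthesis itself, had a log2 value of -0.23 (SE 0.19). Of 15 TIFY genes, most of which encode JAZ repressors of jasmonate signalling, only TIFY11B passed, beside 1.12% of all genes. TIFY11B rose, from 506 and 524 to 996 and 933 (log2 change 0.88, SE 0.14, limma adjusted p = 0.0254). Its call was lost whichever of the 4 arrays was left out (adjusted p up to 0.202), and a second probe set had a log2 value of 0.80 (adjusted p = 0.0845).

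ACS1, which encodes an enzyme that makes the precursor of ethylene, rose from the background: it read 1.85 and 1.22 on the control arrays and 48.7 and 33.5 on the IAA arrays, and its log2 change was 1.69 (SE 0.26, limma adjusted p = 0.0203). The size of that change rests on the 16 added before taking logs, and it missed the threshold whichever of the 4 arrays was left out (adjusted p up to 0.153). The other 9 measured genes of ethylene synthesis and perception did not pass, and the largest value was that of ACS2, at 0.44. The cytochrome P450 genes CYP87A3 and CYP734A4 were among the 20 largest named increases. CYP87A3 read 26.0 and 32.7 on the control arrays and 151 and 134 on the IAA arrays (log2 change 1.81, SE 0.19, limma adjusted p = 0.00284). CYP734A4, of a rice family that inactivates brassinosteroids, read 82.6 and 76.3 on the control arrays and 367 and 272 on the IAA arrays (log2 change 1.80, SE 0.28, limma adjusted p = 0.0227). CYP87A3 passed with each array left out, and CYP734A4 missed the threshold whichever was left out (adjusted p up to 0.189). None of 6 other brassinosteroid genes, 7 gibberellin genes, 14 abscisic acid genes and 3 strigolactone genes passed, and their medians were 0.08, 0.06, 0.14 and -0.11. Of all genes 1.12% passed.

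Genes of thiol and redox chemistry made up a further share of the increases. Glutathione S-transferases attach glutathione to reactive compounds, and 3 of 6 measured named genes rose. GSTU1 (LOC4334347) read 219 and 336 on the control arrays and 1233 and 1431 on the IAA arrays, a change of 2.22 (SE 0.19, limma adjusted p = 0.00121). GSTU6 (LOC4349207) read 971 and 1171 on the control arrays and 3575 and 3329 on the IAA arrays, a change of 1.68 (SE 0.15, limma adjusted p = 0.00153). Both passed with each array left out, but members of this family can share probe signal. GSTZ5 read 1101 and 913 on the control arrays and 1568 and 1944 on the IAA arrays (log2 change 0.79, SE 0.14, limma adjusted p = 0.035) and missed the threshold whichever of the 4 arrays was left out (up to 0.268) and with either BAP array left out (0.0591 and 0.0585), and GSTZ3, GSTF2 and GSTF1 had log2 values of 0.21, 0.07 and -0.04.

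Serine acetyltransferases supply the precursor of cysteine, from which glutathione is made. SAT1 read 549 and 626 on the control arrays and 1287 and 1361 on the IAA arrays (log2 change 1.15, SE 0.12, limma adjusted p = 0.00265) and passed with each array left out. SAT4 read 129 and 103 on the control arrays and 241 and 276 on the IAA arrays (log2 change 1.06, SE 0.17, limma adjusted p = 0.0246) and missed the threshold whichever of the 4 arrays was left out (up to 0.188). The other 5 genes of cysteine and sulfate metabolism did not pass, among them the adenosine phosphosulfate reductase gene APR1 at 0.27. Another bright probe set of APR1 had a log2 value of 0.66 (adjusted p = 0.0978), and a dim one had -0.87 (adjusted p = 0.506). Of 32 glutaredoxin and thioredoxin genes, 3 rose, all glutaredoxins, where 1.12% of all genes passed. GRXC3 read 79.9 and 65.1 on the control arrays and 286 and 217 on the IAA arrays (log2 change 1.59, SE 0.18, limma adjusted p = 0.00486), GRXC7 read 533 and 567 on the control arrays and 938 and 926 on the IAA arrays (log2 change 0.74, SE 0.12, adjusted p = 0.0283) and GRXS5 read 1352 and 1452 on the control arrays and 2359.9 and 2222 on the IAA arrays (log2 change 0.70, SE 0.10, adjusted p = 0.012). GRXC3 missed the threshold without IAA array 1 (0.0563), GRXS5 without that array or either control (up to 0.188) and GRXC7 whichever of the 4 arrays was left out (up to 0.295). GRXC10 lay lower with IAA, at 206 and 178 on the control arrays and 86.2 and 109 on the IAA arrays, and did not pass (log2 change -0.88, adjusted p = 0.0669).

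Peroxidases of the secreted class act on cell walls and hydrogen peroxide, and both that the names identified fell. PRX112 read 619 and 581 on the control arrays and 298 and 229 on the IAA arrays (log2 change -1.15, SE 0.14, limma adjusted p = 0.00755), but its second probe set had a log2 value of -0.02. PRX74 read 643 and 703 on the control arrays and 394 and 332 on the IAA arrays (log2 change -0.87, SE 0.13, limma adjusted p = 0.0203). PRX112 missed the threshold without either control array (adjusted p = 0.0939 and 0.0507) and PRX74 whichever of the 4 arrays was left out (up to 0.192).

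Among cell wall genes 1 of 25 measured expansins and 1 of 28 measured members of the cellulose synthase family passed the test, beside 1.12% of all genes. Of the 25 expansin genes, whose products loosen walls, EXPB11 rose, from 1151 and 1151 to 2192 and 2047 (log2 change 0.87, SE 0.11, limma adjusted p = 0.00655), and 0 fell. It missed the threshold without IAA array 1 or either control array (adjusted p up to 0.0821). EXPB7 lay lower with IAA at 1099 and 954 on the control arrays and 517 and 646 on the IAA arrays (log2 change -0.81, SE 0.17, limma adjusted p = 0.0703) and did not pass. Of 28 genes of the cellulose synthase family CSLA7 fell, from 359 and 357 to 202 and 206 (log2 change -0.77, SE 0.13, limma adjusted p = 0.0331), and 0 rose. CSLF8 and CSLC3 had values of -1.04 and -0.83 that did not pass (adjusted p = 0.128 and 0.0767). The call of CSLA7 was lost whichever of the 4 arrays was left out (up to 0.293).

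Of the measured transport genes 2 passed the test, beside 1.12% of all genes, and both were lower. VIT1.2 (LOC4346978), which carries iron into the vacuole, read 415 and 429.6 on the control arrays and 104 and 113 on the IAA arrays, a change of -1.82 (SE 0.14, limma adjusted p = 0.000529). It was the decrease with the widest gap between groups among named genes, and it passed with each array left out. Nrat1, an aluminium uptake transporter gene of roots, read 235 and 239 on the control arrays and 119 and 131 on the IAA arrays (log2 change -0.85, SE 0.15, limma adjusted p = 0.0346) and missed the threshold whichever of the 4 arrays was left out (up to 0.287). These were the 2 decreases among 45 iron and metal genes, whose median was -0.14. Both IAA arrays lay below both controls in 16 of the 45 and above in 3, beside 25.2% and 21.4% of all genes. The silicon influx and efflux transporter genes Lsi1 and Lsi2, also root genes, read 3744 and 3308 on the control arrays and 2487 and 2698 on the IAA arrays, and 1079 and 883 on the control arrays and 529 and 685 on the IAA arrays, in that order, and did not pass (log2 changes -0.44 and -0.68, adjusted p = 0.0957 and 0.216). None of 24 aquaporin genes passed, beside 1.12% of all genes. PIP2-4 had the lowest value among them, at 1812 and 2089 on the control arrays and 723 and 1192 on the IAA arrays (log2 change -1.05, SE 0.20, limma adjusted p = 0.0581). None of 37 mineral nutrient transporter genes and 14 sugar transporter genes passed, and SWEET15, a sugar exporter gene, had the highest value, 1.28 (adjusted p = 0.0595).

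NAC3 (LOC4342753), a transcription factor gene, had the smallest standard error among the 20 largest named increases. It read 611 and 631 on the control arrays and 1941 and 2061 on the IAA arrays, a change of 1.66 (SE 0.10, limma adjusted p = 0.000195), and passed with each array left out. The 6 other measured NAC genes did not pass. NAC5, NAC4 and NAC6 had values of 0.67, 0.71 and 0.47 (adjusted p = 0.069, 0.277 and 0.198). No gene passed among 6 WRKY, 9 ERF and DREB, 10 MYB and 18 bZIP factor genes, beside 1.12% of all genes.

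None of 39 cyclin and cell cycle kinase genes passed (1.12% of all genes did), with values from -0.45 to 0.32 and a median of -0.11. In 20 of them both IAA arrays lay below both controls, and in 5 above, beside 25.2% and 21.4% of all genes. The 5 histone genes had a median of -0.31 and did not pass either. EL2 and SMR1, which encode inhibitors of cyclin-dependent kinases, were singled out after their values were seen. EL2 read 449 and 461 on the control arrays and 734 and 876 on the IAA arrays (log2 change 0.80, SE 0.12, limma adjusted p = 0.0227), while another probe set of it had a log2 value of 0.46 (adjusted p = 0.436). SMR1 read 397 and 425 on the control arrays and 815 and 721 on the IAA arrays (log2 change 0.88, SE 0.15, limma adjusted p = 0.0376). Both missed the threshold whichever of the 4 arrays was left out (adjusted p up to 0.214 and 0.287). Of 41 heat shock genes HSP81-1, an HSP90 chaperone gene, fell, from 4919 and 5183 to 2632 and 3531 (log2 change -0.72, SE 0.13, limma adjusted p = 0.0487). It missed the threshold without IAA array 1 or either control (up to 0.254), and with either BAP array left out of the fit (adjusted p = 0.069 and 0.0676). A second probe set of HSP81-1 had a log2 value of -0.93 that did not pass (adjusted p = 0.31). None of 8 dehydrin and LEA genes, 13 low-oxygen enzymes, 72 calcium kinases and sensors and 6 clock genes passed. Of all genes 1.12% passed, which also stands beside the 1 call among 41 heat shock genes.

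The 5 decreases outside these groups were modest. OSK4, a kinase gene of the SnRK1 family that senses energy supply, read 1603 and 1566 on the control arrays and 1066 and 1071 on the IAA arrays (log2 change -0.56, SE 0.10, limma adjusted p = 0.0376), with pairs of nearly equal arrays. Its other probe sets had log2 values of -0.17 and -0.11 and did not pass. RSZ21a, a splicing factor gene, read 902 and 842 on the control arrays and 455 and 480.3 on the IAA arrays (log2 change -0.88, SE 0.11, limma adjusted p = 0.00802), and its other probe sets had log2 values of 0.10 and -0.45 (adjusted p = 0.85 and 0.291). AT4, an acyltransferase gene, read 770.3 and 699 on the control arrays and 401 and 412 on the IAA arrays (log2 change -0.83, SE 0.12, adjusted p = 0.0131). BGLU26, a beta-glucosidase gene, read 434 and 459.8 on the control arrays and 233 and 229 on the IAA arrays (log2 change -0.91, SE 0.14, adjusted p = 0.0189), and GAPC2, a gene of glycolysis, read 80.8 and 79.7 on the control arrays and 28.0 and 33.8 on the IAA arrays (log2 change -1.04, SE 0.18, adjusted p = 0.0363). RSZ21a missed the threshold without either control or IAA array 1 and the other 4 genes whichever of the 4 arrays was left out, with adjusted p up to 0.392 for OSK4. GAPC2 also missed it with either BAP array left out of the fit (adjusted p = 0.0564 and 0.0546).

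The steepest increase of all belonged to a gene known only by its locus number, LOC4339041. It read 52.0 and 70.5 on the control arrays and 2018 and 1547 on the IAA arrays, a change of 4.54 (SE 0.19, limma adjusted p = 2.4e-05). LOC4326578 read 45.6 and 90.6 on the control arrays and 1138 and 1449 on the IAA arrays, a change of 4.005 (SE 0.26, limma adjusted p = 0.00024). Both passed with each array left out. Of the decreases, LOC4343498 went from 51.3 and 40.5 to the background, at 2.50 and 2.03 (log2 change -1.76, SE 0.23, limma adjusted p = 0.00882). LOC4328049 read 82.2 and 72.0 on the control arrays and 12.5 and 21.2 on the IAA arrays (log2 change -1.52, SE 0.21, limma adjusted p = 0.012), and its other 2 probe sets had log2 values of -0.93 and -0.63 and did not pass. LOC4343498 missed the threshold in the absence of control array 1 or IAA array 1 (adjusted p = 0.116 and 0.0608), and LOC4328049 without those or control array 2 (up to 0.13).

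**Figure D4:**
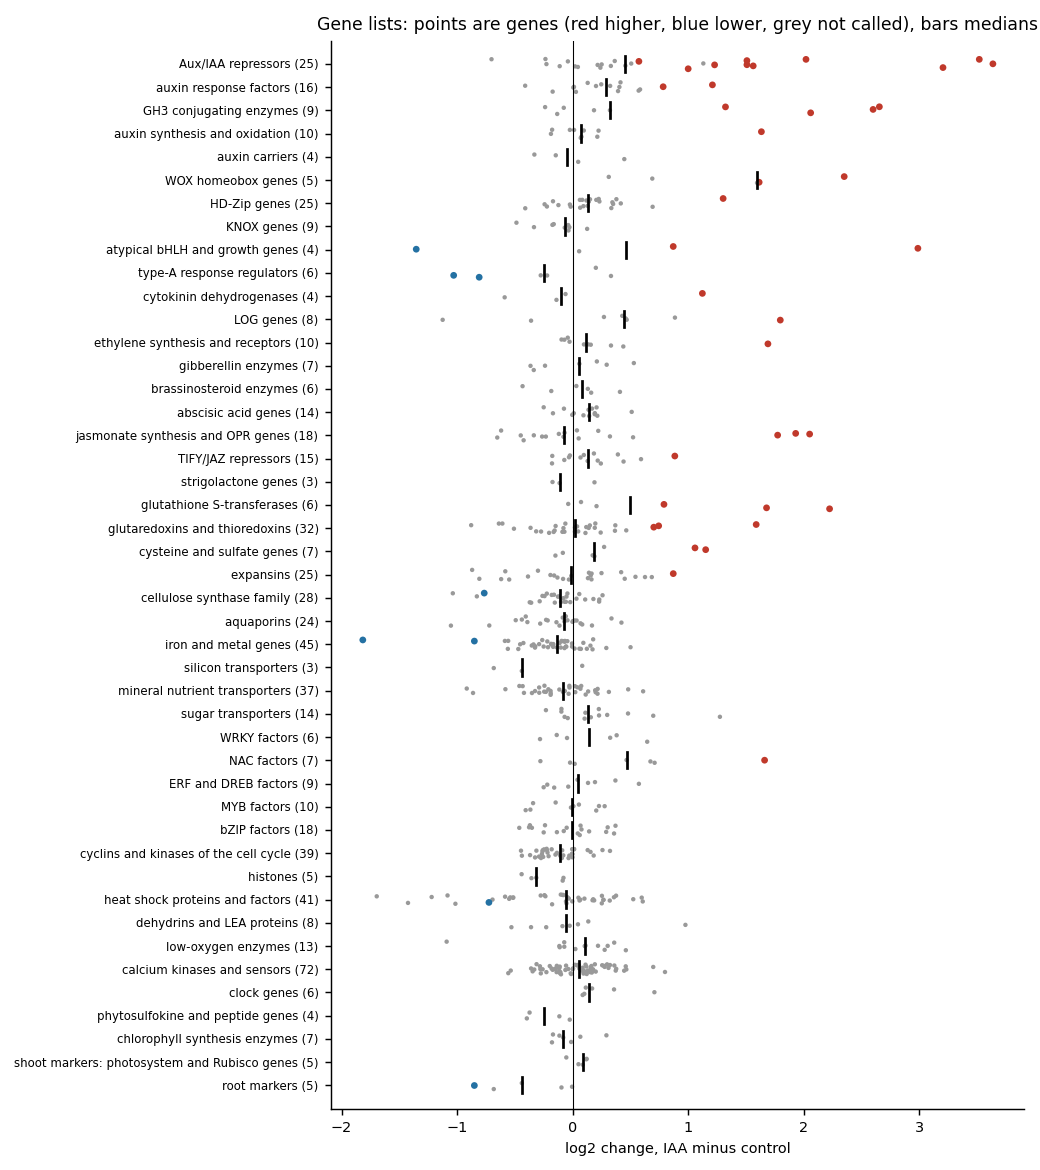
Log2 change with IAA (horizontal axis) of every measured gene in the lists with at least 3 measured members, whose number stands in brackets, with called increases in red, called decreases in blue, other genes in grey and a bar at each list's median. The Aux/IAA, GH3, WOX and glutathione S-transferase lists reach far to the right, and most lists lie around 0.

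The lists together held 670 measured genes, of which 48 were called, beside 1.12% of all genes. The lists were chosen with earlier results of these data known, so this share is no result about the families. The plot of changes by list shows where those 48 lay: 23 of the 48 lists held at least 1 call, and 25 held none. The atypical helix-loop-helix list alone held calls of both signs, but many of the 23 lists held only 1 call and so could not.

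Several called genes were neighbours. With genes in RefSeq order and a window of 5 genes, 23 of the 194 called genes fell into 10 runs. Of these runs 7 held increases, 2 decreases and 1 both, where increases were 74.3% of all called probe sets. Whether 194 genes taken from the 16340 tested genes with a position would form fewer runs was not tested. The OPR genes formed 1 run on chromosome 6, where OPR5, OPR4 and OPR1 lay within 4 gene positions. Of the 7 other tested genes within 5 positions of that run none was called, with values from -0.47 to 0.52. On chromosome 10, GSTU6 lay between LOC4349204, which read 46.9 and 44.8 on the control arrays and 147 and 142 on the IAA arrays (log2 change 1.38, SE 0.16, limma adjusted p = 0.0057), and LOC4349212, which read 42.0 and 45.7 on the control arrays and 155 and 113 on the IAA arrays (log2 change 1.31, SE 0.20, limma adjusted p = 0.019). The LOC4349210 gene between GSTU6 and LOC4349212 had a log2 value of -0.02. The 2 outer genes missed the threshold without control array 1 or IAA array 1 (adjusted p up to 0.0636 and 0.149), and LOC4349212 also without control array 2.

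**Figure D5:**
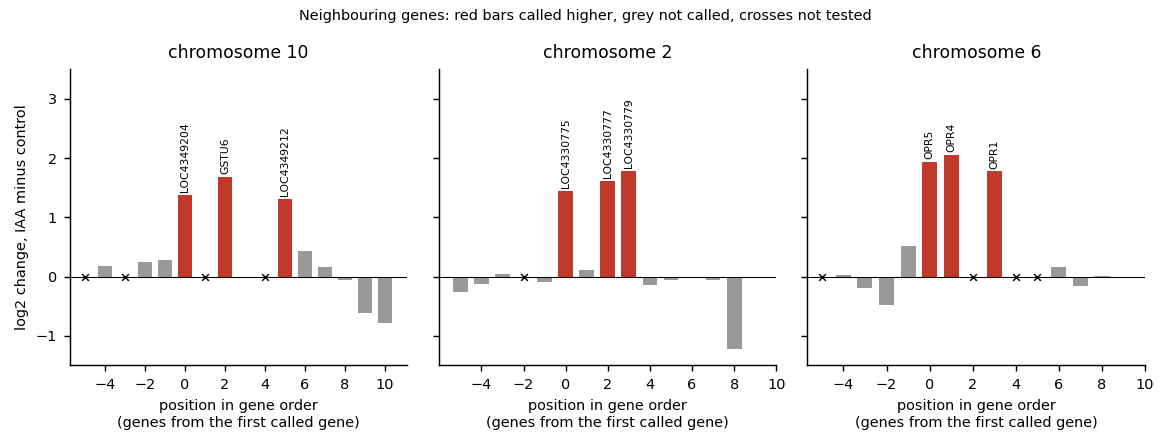
Log2 change with IAA (vertical axis) by position in gene order, counted from the first called gene, for the 3 runs of 3 called genes and the 5 genes to either side, with called increases in red, other tested genes in grey and genes not tested as crosses. The called genes stand above 1.3 while the other tested genes range from -1.22 to 0.52.

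On chromosome 2 the run comprised LOC4330775, LOC4330777 and LOC4330779. LOC4330775 read 119.6 and 207 on the control arrays and 536 and 394 on the IAA arrays (log2 change 1.45, SE 0.26, limma adjusted p = 0.0418). LOC4330777 read 189 and 157 on the control arrays and 508 and 618 on the IAA arrays (log2 change 1.61, SE 0.17, limma adjusted p = 0.00357). LOC4330779 read 72.9 and 79.2 on the control arrays and 229 and 391 on the IAA arrays (log2 change 1.78, SE 0.22, limma adjusted p = 0.00755). The plot of neighbouring genes shows LOC4330776, which lies inside this run, at 0.12 (adjusted p = 0.823). LOC4330777 passed with each array left out, LOC4330779 failed without control array 1 (0.0609) and LOC4330775 without that or either IAA array (up to 0.236), and also without either BAP array (0.0579 and 0.0585). The 2 runs of decreases lay on chromosome 7, and 1 of them paired PRX112 with LOC4344277, which read 448 and 798 on the control arrays and 235 and 240.0 on the IAA arrays (log2 change -1.28, SE 0.23, limma adjusted p = 0.0476). LOC4344277 kept its call only when control array 1 was left out (adjusted p = 0.00953, against up to 0.22 without another array). In the mixed run on chromosome 3, LOC4331847 rose by 0.78 and LOC4331849, next but one, changed by -0.87, and both missed the threshold whichever of the 4 arrays was left out (up to 0.195 and 0.293).

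The cytokinin arrays put the IAA values in context. IAA and BAP were given at the same concentration and times, and 769 probe sets (2.24%) differed between them in limma, but BAP arrays were run on another day, so hormone and run day cannot be told apart there. The comparisons share arrays, and the genes below were not chosen independently of the IAA values. IAA20 read 225 and 182 with BAP and IAA9 209 and 287, near the controls. The 769 became 310 and 430 with IAA array 1 or 2 left out, and 322 and 348 with BAP array 1 or 2 left out.

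The response regulator genes that fell with IAA were high with BAP, and so were RR6 and RR2, which did not pass for IAA. RR6 read 3308.5 and 3117 with BAP, against 559 and 659 in the controls, and RR2 400.0 and 428, against 81.2 and 88.1. RR9 read 2055 and 1909 with BAP, against 237 and 306 in the controls, and differed between the hormones by -3.84 (adjusted p = 1.33e-05). RR4 read 1701 and 1493 with BAP and differed by -3.22 (adjusted p = 1.33e-05). WOX11 lay the other way, at 187 and 299 with BAP, below both controls, a difference between hormones of 2.80 (adjusted p = 0.000237). Its change with BAP against the control did not pass (-1.19, limma adjusted p = 0.0652). GRXC7 read 378 and 324 with BAP, also below both controls, and differed by 1.37 (adjusted p = 0.00083).

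Some genes lay on the same side of the controls with both hormones. EXPB11 read 2330.2 and 2728 with BAP (change against control 1.12, adjusted p = 0.00531) and CKX4 477 and 527 (1.45, adjusted p = 0.00796). VIT1.2 read 163 and 158 with BAP (-1.31, adjusted p = 0.00796) and Nrat1 74.7 and 74.3 (-1.49, adjusted p = 0.00615). In none of these 4 did the hormones differ past the threshold, with IAA minus BAP at -0.25, -0.33, -0.51 and 0.63 (adjusted p from 0.0663 to 0.409), which does not show that they act alike. ACS1 read 18.9 and 30.4 with BAP, above both controls, but that change did not pass (1.199, adjusted p = 0.142).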

How the data were processed

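The deposited value table gives 1 linear intensity per probe set and array, while its background correction and summary method are not stated in the sources used here. Run day and fluidics module were read from the scanner's experiment files, per the file headers. Of 57381 probe sets, 187 array controls were set aside. The deposited intensities were converted to log2(intensity + 16), which understates changes of dim genes, and quantile normalized over 6 arrays, since array medians differed by up to 0.262. Probe sets under the 40th percentile of mean log2 value (4.70, an intensity of 9.94) were dropped, 22878 in all. Printed intensities are normalized values with the 16 removed.

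Group means were fitted to all 6 arrays with limma 3.58.1 in R 4.3.3 (empirical Bayes with an intensity trend, 3 residual degrees of freedom), and p-values were adjusted by Benjamini-Hochberg over all tested probe sets. Every adjusted p is two-sided and from that fit, or, where an array is said to be left out, from the same fit to the other 5. The fit was tested on data simulated from the measured means and spreads. It called 6 of 54 changes of 0.5 on the log2 scale, 51 of 82 of 1 and 64 of 64 of 2. Among 34116 unchanged probe sets it called 14. Python 3.11.15, pandas 2.3.3 and matplotlib 3.10.9 read and drew the tables.

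Names came from the platform annotation, matched by gene number to a RefSeq table of the japonica assembly ASM3414082v1, which was used for names and gene order only. It named 22436 target probe sets with 1 gene, 95 with several and 34663 with none. Near-identical copies can share probe signal.

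The comparison, its members, the lists and the rule for named genes were chosen with earlier results of these data known. The rule took called probe sets with 1 named gene and no overlap between groups: the 20 largest increases, the 15 largest decreases (14 existed), every called list member and up to 4 members with the smallest p of each list, all measured Aux/IAA and GH3 genes, and 2 locus-only genes each way. Lists were matched on symbols and synonyms, and genes whose synonym belonged to another family were then removed by identity, which dropped the lists of LBD and of ubiquitin ligase genes. A gene is shown by its brightest probe set in list counts. Promoter motifs were not analysed here. Same-numbered arrays deviated together with correlations of 0.0174 (control and IAA), 0.0264 and -0.0595, so replicate numbers were not taken as pairs.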

Additional observations from a re-analysis of the deposited data

How the results depend on the processing

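Every setting below changed 1 choice, except the 2-fold rule, which adds a fold limit and drops the adjustment of p. The 217 higher probe sets became 60 with dim probe sets kept and 80 without the intensity trend, and 78 to 211 with each array left out in turn. The 75 lower ones became 258 without rescaling, 8 with dim probe sets kept, 12 without the intensity trend, 129 by a 2-fold rule with an unadjusted p under 0.05, and 7 to 76 with each array left out. The 769 that differed between hormones became 234 with dim probe sets kept, 223 without the trend and 310 to 591 with each array left out. The cause was not tested, except that leaving out an array leaves fewer samples. With the replicate number as a block, 234 were higher, 86 lower and 756 differed between hormones. Under the other settings the counts stayed within 1.5 times. With the control and IAA arrays alone 210 were higher and 74 lower. Of 59 named called probe sets 22 kept their call under all 16 settings and 0 changed sign. Signal near the background limits dim genes such as ACS1, WOX10 and LOC4343498.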

Other observations

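Some genes outside the calls differed widely between replicate arrays. The dehydrin gene RAB21, which responds to water loss, read 30.7 and 299 on the control arrays and 115 and 418 on the IAA arrays, and LEA19, a late embryogenesis abundant protein gene, read 269 and 939 on the control arrays and 273 and 435 on the IAA arrays. RAB16D read 15.4 and 69.3 on the control arrays and 8.78 and 49.5 on the IAA arrays. In all 3 genes array 2 of each group was above array 1. The heat shock factor gene HSF24 read 279.7 and 389.8 on the control arrays and 55.4 and 217 on the IAA arrays, with IAA array 1 far below the other 3. Its groups did not overlap, and its other probe sets had log2 values of -1.10 and -1.30 (limma adjusted p = 0.525 and 0.244). SWEET2b, a sugar transporter gene, read 119.9 and 112 on the control arrays and 325 and 119 on the IAA arrays, so that IAA array 1 alone was high. None of these 5 genes passed the test between IAA and control, with limma adjusted p of at least 0.244.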
